A study of Mus musculus with 6 samples.

Results

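The genes described here encode the proteins of the mitochondrial ribosome, taken as every gene whose symbol in the platform annotation is Mrpl or Mrps followed by a number. The array carried 132 probes for 76 such genes, 48 named for the large subunit (Mrpl) and 28 for the small subunit (Mrps). Each gene was represented by the probe with the highest mean intensity over the 6 arrays, and 71 of the 76 were detected on at least 1 array, of 10679 features tested in all. Mrpl19, Mrpl32, Mrpl39, Mrpl45 and Mrps14 were below detection on all 6 arrays and have no value here.

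The T cells came from spleen and lymph nodes of male C57BL/6 mice of 3 kinds, all cultured for 20 to 21 h with T cell-depleted splenocytes of the graft donor strain and then sorted on CD3 and CD69. The donors were BDF1 mice, which are F1 hybrids of C57BL/6 and DBA/2. Naive mice were healthy and ungrafted. Rejecting mice carried BDF1 tail skin, were otherwise untreated and were sampled on day 7. Tolerant mice also carried BDF1 tail skin, had received a donor-specific transfusion and the anti-CD40L antibody MR-1, and were sampled on day 100. CD69 is a surface protein that T cells display within hours of antigen receptor stimulation, so the CD69+ fraction was meant to hold the donor-reactive cells, and the CD69- fraction served as its comparison in each status. A single Illumina MouseWG-6 array was run for each status and fraction, 6 in all, and the labels do not say how many mice stood behind a library. No combination was repeated, so an error below rests on the spread of a difference over statuses, or over fractions. In the limma fits that spread is drawn toward a value estimated over all features. Status is also tied to the day of sampling and the antibody, and these cannot be told apart.

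Mitochondrial ribosomes translate the few proteins encoded by mitochondrial DNA, all of them core subunits of the respiratory chain and of ATP synthase. Their RNA is made in the organelle, but every protein of the ribosome is encoded in the nucleus, made in the cytosol and imported. Stimulation of a resting T cell through the antigen receptor is known to start growth and mitochondrial biogenesis. Members with a bacterial counterpart form the core of the particle, around the peptidyl transferase centre, the decoding centre and the stalk, and members without one were added in the mitochondrial lineage, many of them on the surface.

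Depth was similar across arrays, where 12669 to 13469 probes passed a detection p of 0.01, with median intensities of 161.5 to 174.2. Cd69 itself was higher in the CD69+ fraction by 1.53 on the log2 scale, at 13.77, 13.31 and 13.89 in naive, tolerant and rejecting cells against 12.53, 11.21 and 12.65 in their CD69- cells. Of the T cell markers 7 of 9 were tested, Cd8a being below detection, and their summed level was 77996 to 110853 in the CD69+ and 118333 to 142065 in the CD69- libraries. Genes of some other cell types that the sort could hold also moved with the fraction. In every status the erythroid sum was lower and the class II, plasma cell and natural killer sums were higher in CD69+ cells. Erythroid genes (3 of 4 tested) summed to 1258 to 5397 in CD69+ and 2697 to 37395 in CD69- cells, and class II genes (3 of 4) to 3023 to 5306 and 861 to 1472. Plasma cell genes (2 of 4) summed to 12136 to 14239 and 5230 to 7331. These were Mzb1 and Xbp1 alone, as Jchain and Sdc1 were below detection. B cell genes (2 of 7, with Ms4a1, Pax5 and Cd22 below detection) summed to 579 to 1903 and 677 to 1108 and were higher in CD69+ cells of tolerant mice alone, natural killer genes (2 of 4) to 213 to 506 and 118 to 253, and none of 5 myeloid genes was detected. Some natural killer sums were near the floor, at 155 in naive and 118 in rejecting CD69- cells over 2 genes. The dimmest detected probes there lay at 6.56 and 6.81 on the log2 scale, so the order of these sums is uncertain. The highest B cell, class II, natural killer and plasma cell sums were all in tolerant CD69+ cells. Of the 2 plasma cell genes, however, 1 was higher and 1 lower in tolerant than in naive CD69+ cells. The part of these cells in the results was not tested, and in such bulk samples more cells of a type and more RNA per cell cannot be told apart.

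Promoters of 5 members are shown first. Mrps22, Mrpl17, Mrpl20 and Mrpl37 are from the largest rises described below, and Mrpl24 is the only member called lower. No member from the middle of the range is shown. The chosen windows differ in the motifs known from nuclear genes for mitochondrial proteins. The windows are from RefSeq, build GRCm38.p6, and run from 250 bases before to 50 bases after the gene start in the direction of the gene. They cover chr9:98601630-98601929 for Mrps22, chr7:105811038-105811337 for Mrpl17 and chr4:107066817-107067116 for Mrpl37, all on the minus strand, and chr4:155802628-155802927 for Mrpl20 and chr3:87919294-87919593 for Mrpl24, both on the plus strand. Capitals mark a match on either strand to CCGGAAG (an Ets site, the kind that GABPA binds), GCATGCGC (the NRF1 site), CACGTG (the E-box bound by MYC and USF proteins) or AAGATGG (the YY1 site).
Mrps22: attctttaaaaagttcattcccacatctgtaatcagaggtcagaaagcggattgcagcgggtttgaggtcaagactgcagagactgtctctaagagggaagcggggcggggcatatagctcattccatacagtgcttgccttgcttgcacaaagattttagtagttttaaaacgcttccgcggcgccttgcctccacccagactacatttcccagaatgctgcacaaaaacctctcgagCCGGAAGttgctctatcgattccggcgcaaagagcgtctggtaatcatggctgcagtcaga
Mrpl17: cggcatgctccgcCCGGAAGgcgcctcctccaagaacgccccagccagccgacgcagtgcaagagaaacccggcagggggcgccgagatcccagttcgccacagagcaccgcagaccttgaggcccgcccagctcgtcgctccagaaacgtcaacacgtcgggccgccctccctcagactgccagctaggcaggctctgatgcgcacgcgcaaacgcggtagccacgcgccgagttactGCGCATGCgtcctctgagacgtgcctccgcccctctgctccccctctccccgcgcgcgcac
Mrpl20: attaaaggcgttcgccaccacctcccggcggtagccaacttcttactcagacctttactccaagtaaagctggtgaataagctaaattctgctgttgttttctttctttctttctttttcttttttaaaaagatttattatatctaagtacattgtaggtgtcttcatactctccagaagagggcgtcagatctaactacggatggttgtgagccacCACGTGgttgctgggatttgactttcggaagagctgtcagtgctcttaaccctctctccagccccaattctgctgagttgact
Mrpl37: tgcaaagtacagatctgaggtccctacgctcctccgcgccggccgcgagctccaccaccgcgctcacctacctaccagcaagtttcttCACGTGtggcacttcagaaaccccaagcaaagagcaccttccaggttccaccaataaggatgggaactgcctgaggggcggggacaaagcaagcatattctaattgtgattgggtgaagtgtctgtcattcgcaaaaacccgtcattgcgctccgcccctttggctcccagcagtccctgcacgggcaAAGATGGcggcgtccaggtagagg
Mrpl24: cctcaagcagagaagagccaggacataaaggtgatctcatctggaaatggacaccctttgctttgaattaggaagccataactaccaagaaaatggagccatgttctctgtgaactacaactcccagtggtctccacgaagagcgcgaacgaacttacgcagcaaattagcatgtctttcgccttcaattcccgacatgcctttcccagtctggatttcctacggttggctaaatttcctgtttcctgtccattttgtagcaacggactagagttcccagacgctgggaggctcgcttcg

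Mrps22 and Mrpl17, which had the largest differences between CD69+ and CD69- cells, both held an Ets match, 11 and 237 bases before the start, and Mrpl17 held an NRF1 match 11 bases before it. Mrpl20 held an E-box 33 bases before the start, and Mrpl37 held an E-box 162 bases before it and a YY1 match 26 bases after it. Mrpl24, lower in CD69+ cells, held none of the 4 motifs. Nor did the windows of Mrpl12, Mrps6, Mrps2 and Mrps10, not shown, which were higher in CD69+ cells by 1.87, 1.77, 1.71 and 1.60. Windows were found for 67 of the 76 members, and a gene with several windows was counted once. An Ets match was in 38.8% of members and 9.93% of all 27025 genes with a window. An NRF1 match was in 11.9% and 3.05%, a YY1 match in 19.4% and 7.28%, and an E-box in 7.46% and 8.09%. Among the 45 members with a window that were higher in CD69+ cells, 11.1% held an E-box, 24.4% a YY1 match, 37.8% an Ets match and 8.89% an NRF1 match. Among the 18 that were tested and not higher, the shares were 0%, 5.56%, 50% and 11.1%. A difference between these shares was not tested, and a match is a description of the letters in the window.

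The first comparison asks what distinguishes CD69+ from CD69- cells after contact with donor antigen. Of the 71 members tested, 50 were higher in CD69+ cells (70.4%), 1 was lower (1.41%) and 20 passed no threshold, by limma with the status as a block and Benjamini-Hochberg adjustment over all features at 0.05. Over all 10679 features, 29.6% were higher and 33.1% lower. The median difference of the members was 0.74 on the log2 scale, with the middle of the distribution between 0.29 and 1.16 and the whole range from -0.43 to 2.11, against a median of -0.05 over all features. At least 2-fold higher were 26 members (36.6%), against 15.3% of all features. In 55 members (77.5%) every CD69+ library lay above every CD69- library, which held for 33.0% of all features. At an unadjusted p under 0.05 the members called in either direction numbered 54 (76.1%), against 67.3% of all features.

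**Figure D1:**
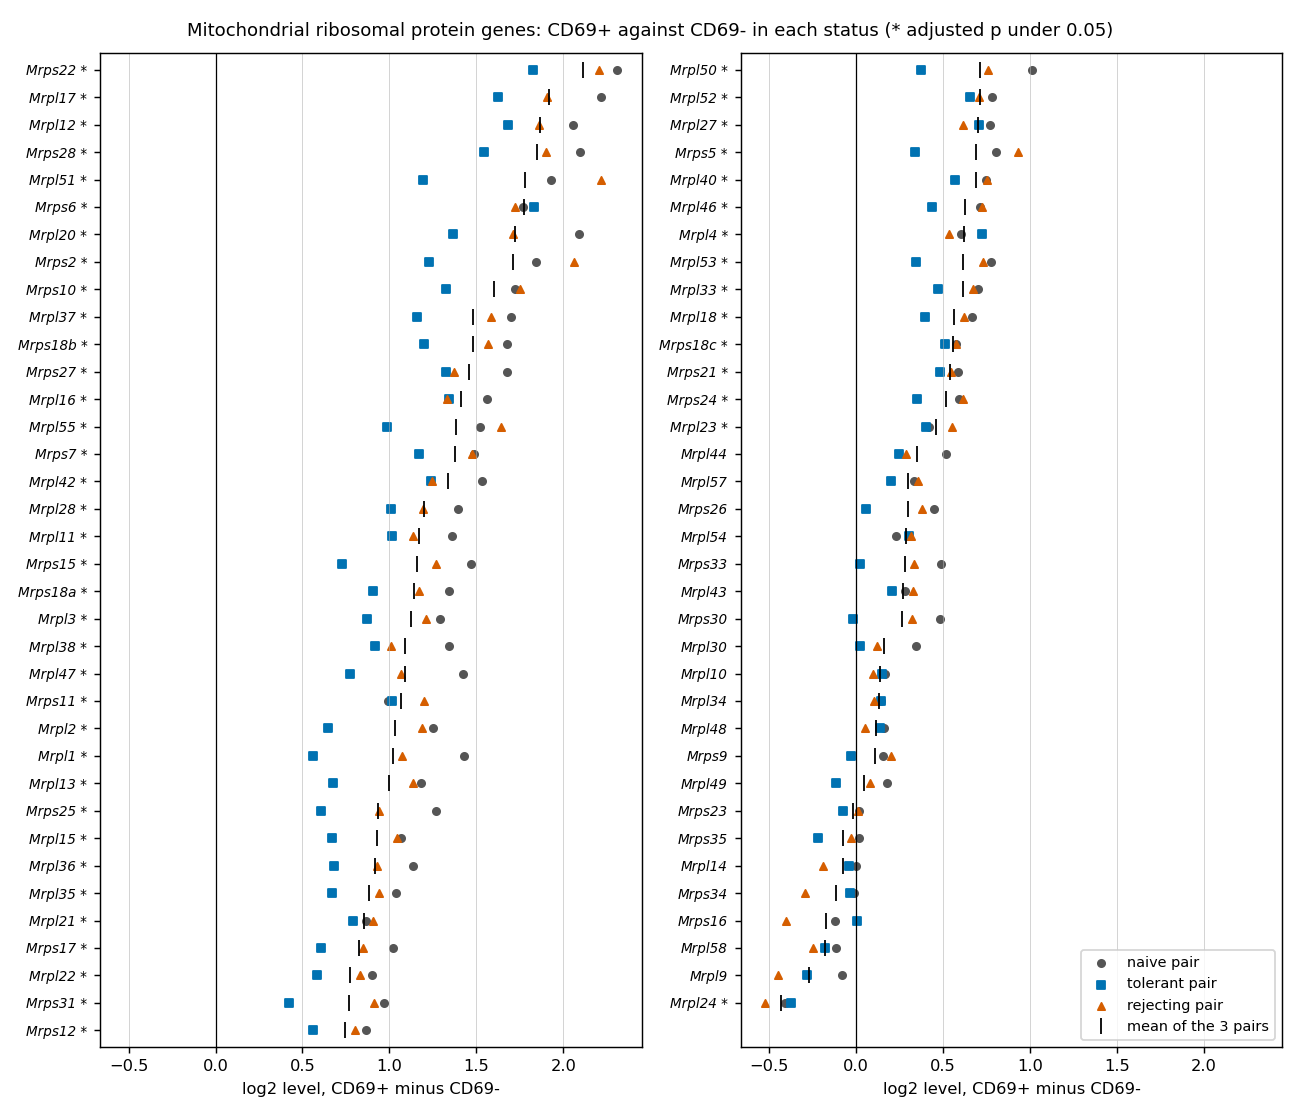
Difference between CD69+ and CD69- cells (x axis, log2 level) for each of the 71 members, ordered by the mean over the 3 pairs of libraries (vertical bar). Circles, squares and triangles are the naive, tolerant and rejecting pairs, and an asterisk marks an adjusted p under 0.05. The bars run from Mrps22 at 2.11 to Mrpl24 at -0.43, and in 56 of the 71 rows the tolerant square is the leftmost. Mrpl51 and Mrps15 were not detected in CD69- cells.

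Mrps22, a small subunit protein with no bacterial counterpart, had the largest difference. Its log2 levels were 12.24, 11.60 and 12.08 in naive, tolerant and rejecting CD69+ cells and 9.93, 9.78 and 9.87 in the matching CD69- cells. All 3 CD69+ libraries were far above all 3 CD69- libraries, with a difference of 2.11 (SE 0.14, adjusted p = 0.000911, limma), which is 4.33-fold.

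In the large subunit, the largest rises were those of Mrpl17 and Mrpl12. Mrpl17 is the counterpart of a bacterial protein at the exit of the peptide tunnel. Its levels were 13.93, 13.36 and 13.60 in CD69+ and 11.71, 11.73 and 11.70 in CD69- cells. The CD69- libraries were within 0.04 of each other while the CD69+ libraries differed by status, and the difference between fractions was 1.92 (SE 0.15). Mrpl12, the L7/L12 stalk protein that recruits translation factors and also binds the mitochondrial RNA polymerase, stood at 13.99, 13.56 and 13.79 in CD69+ and at 11.93, 11.88 and 11.93 in CD69- cells. It rose by 1.87 (SE 0.12), or 3.65-fold, and showed the same order of the 3 CD69+ libraries as Mrpl17. Mrpl20, whose bacterial counterpart acts early in assembly of the large subunit, rose by 1.72 (SE 0.17), from 8.58, 8.45 and 8.78 in CD69- cells to 10.67, 9.81 and 10.49 in CD69+ cells. Mrpl37, a mitochondria-specific protein, rose by 1.48 (SE 0.15). Mrpl51, also mitochondria-specific, was detected on the 3 CD69+ arrays and on no CD69- array, where it was at least 1.91-fold lower. Its second probe was detected on 1 of the 6 arrays and gives no usable difference.

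In the small subunit, Mrps28, Mrps6, Mrps2 and Mrps10 rose most after Mrps22. Mrps28 had levels of 12.41, 11.89 and 12.20 in CD69+ and 10.31, 10.34 and 10.30 in CD69- cells, a difference of 1.85 (SE 0.15). Mrps6 rose by 1.77 (SE 0.11), and its 3 pairs were close together, at 1.77, 1.83 and 1.72 in naive, tolerant and rejecting cells. Mrps2, counterpart of the bacterial protein S2, rose by 1.71 (SE 0.19). Mrps10, which lies in the head of the subunit in bacteria, rose by 1.60 (SE 0.14). The adjusted p of all 10 members named so far as rising lay between 0.000853 and 0.00257 (limma).

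The members with well-known functions rose to different degrees. Mrps27, a pentatricopeptide repeat protein of the small subunit, rose by 1.46 (SE 0.13). Mrps12, part of the decoding centre and the site of streptomycin resistance mutations in bacteria, had levels of 13.25, 12.91 and 13.10 in CD69+ and 12.38, 12.35 and 12.30 in CD69- cells. Its CD69+ libraries were above all CD69- libraries by a smaller margin, 0.74 (SE 0.12, adjusted p = 0.00521, limma), the median of the whole family. Mrps5, whose bacterial counterpart takes part in decoding accuracy, rose by 0.69 (SE 0.15, adjusted p = 0.0147, limma). That call was lost without the naive pair (adjusted p = 0.0664) and without the rejecting pair (0.0927), and its second probe showed 0.23 (0.316). Mrpl45, which faces the inner membrane at the tunnel exit, was below detection. Mrpl58, also called Ict1, a peptidyl-tRNA hydrolase related to release factors that is built into the large subunit, showed a difference of -0.18 that did not pass (SE 0.11, adjusted p = 0.193).

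**Figure D2:**
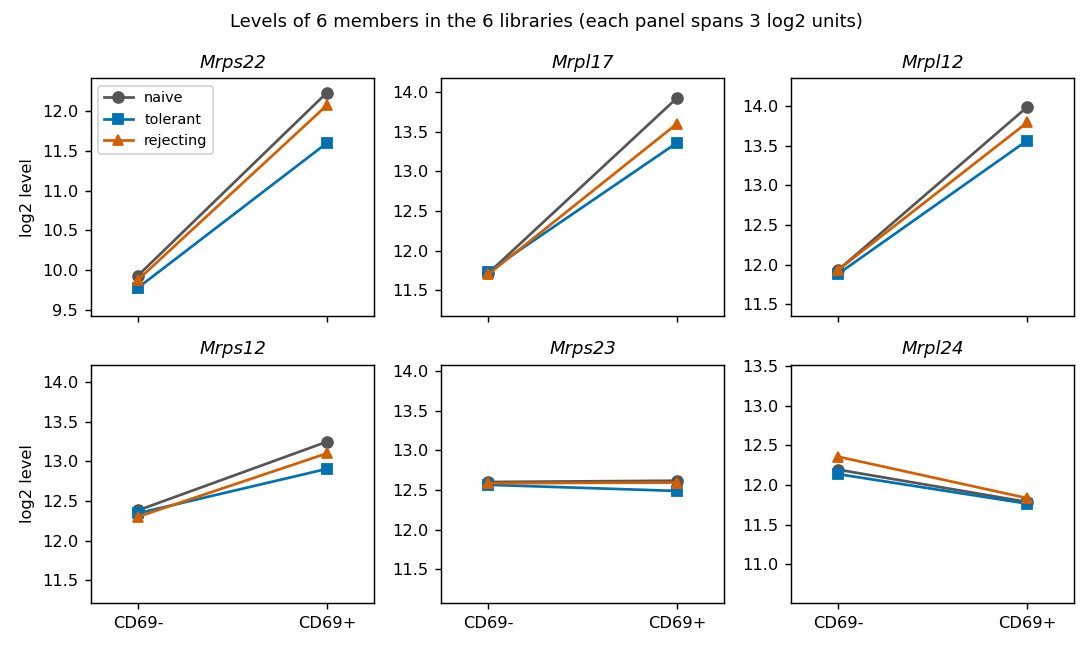
Log2 levels (y axis) of 6 members in CD69- and CD69+ libraries (x axis), 1 point per library and 1 line per status, each panel spanning the same height. Mrps22, Mrpl17 and Mrpl12 rise steeply with the tolerant line lowest in CD69+ cells, Mrps12 rises by 0.74, Mrps23 is level and Mrpl24 falls by 0.43.

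Mrpl24 was the only member called lower. Its bacterial counterpart starts assembly of the large subunit and sits at the tunnel exit. Its levels were 11.79, 11.77 and 11.83 in CD69+ and 12.19, 12.14 and 12.36 in CD69- cells, with no overlap between fractions. It fell by 0.43 (SE 0.11, adjusted p = 0.0202, limma). The call was lost under median centring (-0.20, adjusted p = 0.235), without the naive pair (adjusted p = 0.0828) and without the rejecting pair (0.165).

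Among the 20 members that did not pass, differences ran from -0.27 for Mrpl9 (adjusted p = 0.115) to 0.35 for Mrpl44. The 5 nearest to 0 were Mrps23 at -0.02, Mrpl49 at 0.05, Mrps35 and Mrpl14 at -0.08 each, and Mrps9 at 0.11. Mrps23 had levels of 12.62, 12.49 and 12.59 in CD69+ and 12.60, 12.57 and 12.59 in CD69- cells, all 6 within a narrow band. For Mrpl49 the probes disagreed. Its other 3 detected probes, all dimmer, showed differences of 0.87, 1.01 and 0.65. In all, 34 further detected probes lay in 22 member genes, and 32 of them had the sign of the probe used. The opposite signs were at probes of Mrpl15 (-0.07 against 0.93) and Mrps23 (0.27 against -0.02).

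By subunit name, the counts were as follows. Of 44 Mrpl members 31 were higher and 1 was lower, with a median of 0.71, and of 27 Mrps members 19 were higher and none was lower, with a median of 0.77. Mrps30 and Mrps18a, named for the small subunit, are parts of the large subunit in mammalian structures. Members with a bacterial counterpart, by the current ribosomal protein nomenclature, were higher in 35 of 43 and lower in 1, with a median of 0.88. Members without one were higher in 15 of 28 and lower in none, with a median of 0.62. This division was made after the values were seen, and the difference between the sets was not tested.

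Other genes of mitochondrial gene expression were read from the same fit. Of 4 mitoribosome proteins with other names, 3 were higher, with a median of 0.71. These were Ptcd3 (1.29), Chchd1 (0.78) and Gadd45gip1 (0.63), while Dap3, a GTP-binding protein of the small subunit, showed 0.20 and did not pass (adjusted p = 0.232, limma). Of 16 assembly and rRNA modification factors 8 were higher and 2 lower, with a median of 0.50. The rRNA methyltransferase Mrm3 rose by 2.09 and the GTPases Noa1 and Mtg1 by 1.12 and 1.03, whereas the pseudouridine synthase homologue Rpusd4 fell by 0.82 and the methyltransferase Mrm1 fell by 0.45. Of 14 translation factors 8 were higher and 2 lower, with a median of 0.55. Lrpprc, which stabilises mitochondrial messenger RNA, rose by 1.90, and the elongation factors Tsfm and Gfm1 rose by 1.82 and 1.71. The initiation factor Mtif3 fell by 0.52, and Oxa1l, which inserts new proteins into the inner membrane, fell by 0.85.

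Of 12 mitochondrial aminoacyl-tRNA synthetases 7 were higher and 1 lower, with a median of 0.51. Cars2, Rars2 and Lars2, the enzymes for cysteine, arginine and leucine, rose by 1.45, 1.41 and 1.30. Wars2, the tryptophan enzyme, was detected on 3 arrays and was at least 1.14-fold lower. Of 9 genes for transcription and replication of mitochondrial DNA, 4 were higher and 1 lower, with a median of 0.41. The topoisomerase Top1mt rose by 1.99, the elongation factor Tefm by 0.92 and the helicase Twnk by 0.80, and Polg2, the accessory subunit of the DNA polymerase, fell by 1.01. Of 64 oxidative phosphorylation genes 37 were higher and 7 lower, with a median of 0.48. The complex I genes Ndufa12 and Ndufb6 rose by 1.67 and 1.29 and the complex III gene Cyc1 by 1.45, while Cox7a2l, Uqcrq and Ndufa6 fell by 1.72, 1.43 and 1.06.

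The 53 cytosolic ribosomal protein genes tested showed 4 higher and 3 lower, with a median of -0.02. The higher ones were Rps27l, Rps4l, Rpl6 and Rplp0, and the lower ones Rpl21, Rpl19 and Rpl22. The probes of this list were near the top of the intensity scale, with a median mean intensity of 64275.5 where the highest feature on the array had 70070.4. What that does to their differences was not tested. The mitochondrial members had mean intensities of 257.5 to 15682.9.

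**Figure D3:**
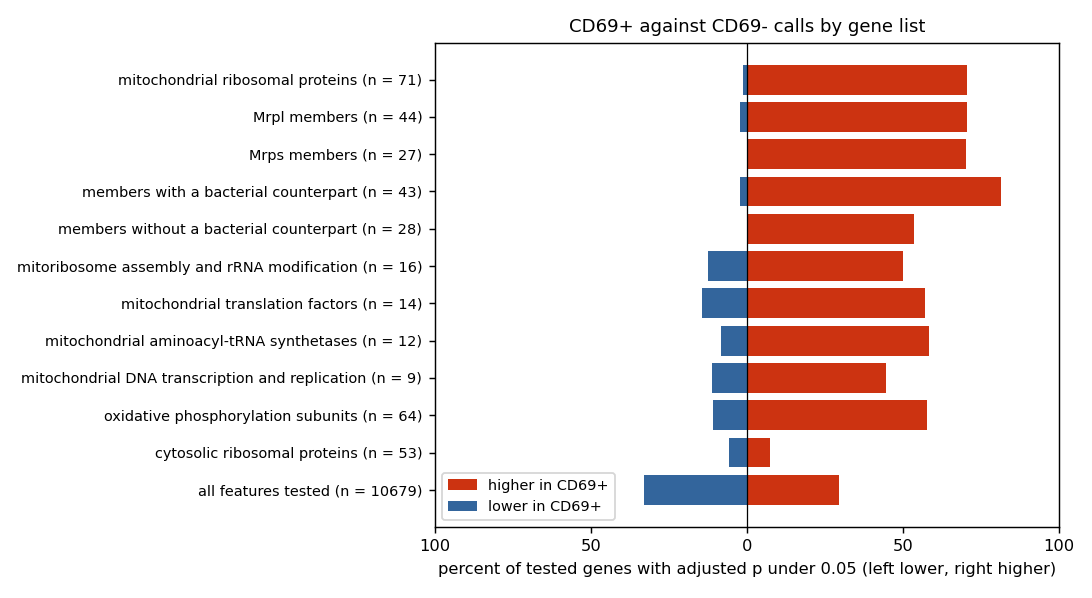
Share of tested genes called higher (bars to the right) or lower (bars to the left) in CD69+ cells at an adjusted p under 0.05, in percent, for the members, their divisions, other gene lists and all features. The members reach 70.4% higher and 1.41% lower, against 29.6% and 33.1% of all features.

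Nuclear regulators of mitochondrial genes moved in both directions, with 4 of 8 higher and 2 lower. Myc, the growth-promoting E-box factor, had levels of 11.15, 10.33 and 10.82 in CD69+ and 8.11, 8.17 and 8.51 in CD69- cells. All CD69+ libraries were above all CD69- libraries, with a difference of 2.50 (SE 0.20, adjusted p = 0.00112, limma). The coactivator Pprc1 rose by 1.87 (SE 0.12). Gabpb1 and Gabpa, the subunits of the Ets factor GABP, rose by 1.15 (SE 0.16) and 0.74 (SE 0.19). Nrf1, the factor that binds the NRF1 site, fell by 0.80 (SE 0.10), and the coactivator Ppargc1b fell by 0.94 (SE 0.11). Max, the partner of Myc, and the nuclear receptor Esrra showed -0.13 and -0.16 and did not pass, and Yy1 and Ppargc1a were below detection. Whether these genes act on the members was not tested.

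The second comparison asks whether tolerant, rejecting and naive cells differ. After quantile normalization the CD69- libraries were nearly level in the members and the CD69+ libraries were not. When each gene was set against its own 6-library mean, the members' median was -0.37 in naive, -0.37 in tolerant and -0.38 in rejecting CD69- cells. In CD69+ cells it was 0.52 in naive, 0.21 in tolerant and 0.40 in rejecting cells. The median difference between fractions was accordingly 0.87 in the naive, 0.58 in the tolerant and 0.83 in the rejecting pair. The tolerant pair had the lowest of the 3 signed differences in 56 of 71 members (78.9%), in 39.2% of all features and in 61.2% of the 3165 features higher in CD69+ cells. For a feature lower in CD69+ cells, the lowest signed difference is the largest fall. The difference was above 0 in 65 members in the naive, 61 in the tolerant and 64 in the rejecting pair. Of all 10679 features it was above 0 in 5219, 5052 and 5060. In all 3 pairs it was above 0 in 60 members (84.5%), against 38.1% of all features. Each pair is a single pair of libraries, so whether the rise differs between statuses could not be tested.

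**Figure D4:**
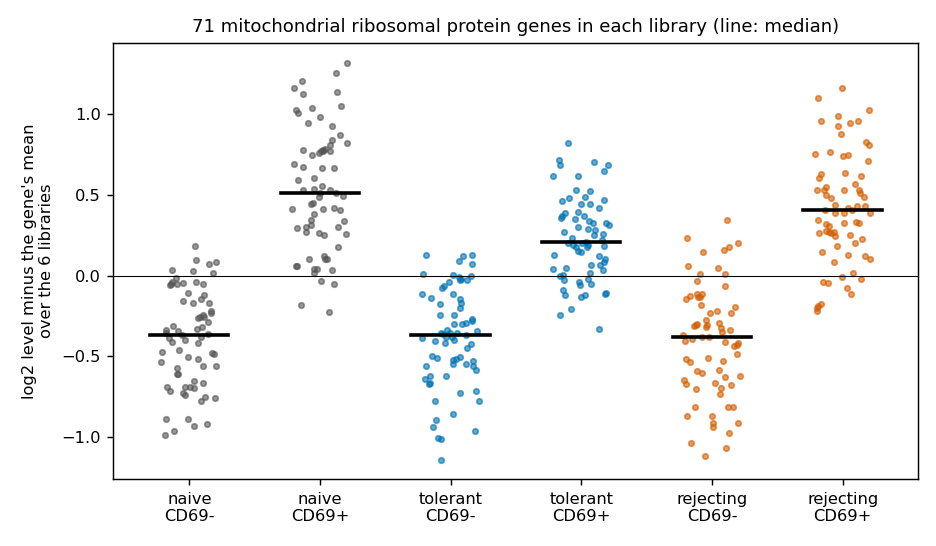
Log2 level of each of the 71 members minus that gene's mean over the 6 libraries (y axis) in each library (x axis), 1 point per gene, with a line at the median. The 3 CD69- medians lie between -0.38 and -0.37, and the CD69+ medians are 0.52 in naive, 0.21 in tolerant and 0.40 in rejecting cells.

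Over both fractions together, no member was called between statuses by limma with the fraction as a block. The features called were 1 for tolerant against naive (0.00936%), 0 for rejecting against naive (0%) and 2 for rejecting against tolerant (0.0187%). At an unadjusted p under 0.05 there were 1, 1 and 2 members, and 12.1%, 4.75% and 14.3% of all features. The members' median was -0.15 for tolerant against naive, -0.10 for rejecting against naive and 0.07 for rejecting against tolerant, against 0.01, -0.01 and -0.01 over all features. Of the 71 members 63, 55 and 19 had a difference below 0, against 48.9%, 51.5% and 51.8% of all features. The 3 contrasts share libraries with each other.

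Furthest apart for tolerant against naive over both fractions were Mrpl20 at -0.49, Mrpl30 at -0.47 and Mrps22 at -0.39, and at the other end Mrpl57 at 0.30, Mrps16 at 0.25 and Mrpl33 at 0.17. Mrpl30, a large subunit protein whose bacterial counterpart is L30, had levels of 12.03, 11.40 and 12.00 in naive, tolerant and rejecting CD69+ cells and 11.68, 11.37 and 11.89 in CD69- cells. The tolerant library was the lowest in both fractions. Its difference from naive had an unadjusted p of 0.0249 and an adjusted p of 0.403, and rejecting cells were higher than tolerant cells by 0.56 (adjusted p = 0.259, limma). For rejecting against naive, Mrps15, Mrpl57 and Mrps25 were at the high end, with 0.36 for each of the latter, and Mrps27, Mrpl11 and Mrps2 at the low end, at -0.33, -0.30 and -0.24. For rejecting against tolerant, Mrps15, Mrpl30 and Mrpl20 were at the high end, with 0.56 and 0.51 for the latter, and Mrps27, Mrpl33 and Mrpl48 at the low end, at -0.23, -0.19 and -0.18. Mrps15 was detected on no CD69- array, so its place in both orders rests partly on values not above background, and no difference over both fractions is given for it. The lowest adjusted p among the members was 0.403 for tolerant against naive, 0.969 for rejecting against naive and 0.259 for rejecting against tolerant.

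Within CD69+ cells, 8 of the 71 members (11.3%) were at least 1.5-fold lower in tolerant than in naive cells with an intensity of at least 500 in the brighter library, against 6.29% of all features. None was 1.5-fold higher, against 8.92% of all features. These are differences between single libraries with no test. The members' median was -0.33 with 66 of 71 below 0, where all features had a median of 0.00 and 49.9% below 0. Among the 3165 features higher in CD69+ cells the median was -0.30 with 77.5% below 0, and these values use the libraries from which the features were called.

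Mrpl20 was furthest apart. Its levels of 10.67 in naive and 9.81 in tolerant CD69+ cells make it 1.81-fold lower in tolerant cells, while its CD69- levels were 8.58 and 8.45. Mrpl1, the protein of the flexible L1 stalk at the tRNA exit, had 11.70 in naive, 10.93 in tolerant and 11.68 in rejecting CD69+ cells, 1.71-fold lower in tolerant than in naive cells. In CD69- cells Mrpl1 had 10.27, 10.37 and 10.61, so that its tolerant library was lowest in the CD69+ fraction only. Mrps2 was 1.60-fold lower, Mrpl50 1.57-fold, Mrps22 and Mrpl30 1.55-fold, Mrpl47 1.54-fold and Mrps10 1.50-fold. At the other end were Mrps16, with 12.75 in tolerant and 12.44 in naive CD69+ cells, and Mrpl57, both under 1.5-fold.

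**Figure D5:**
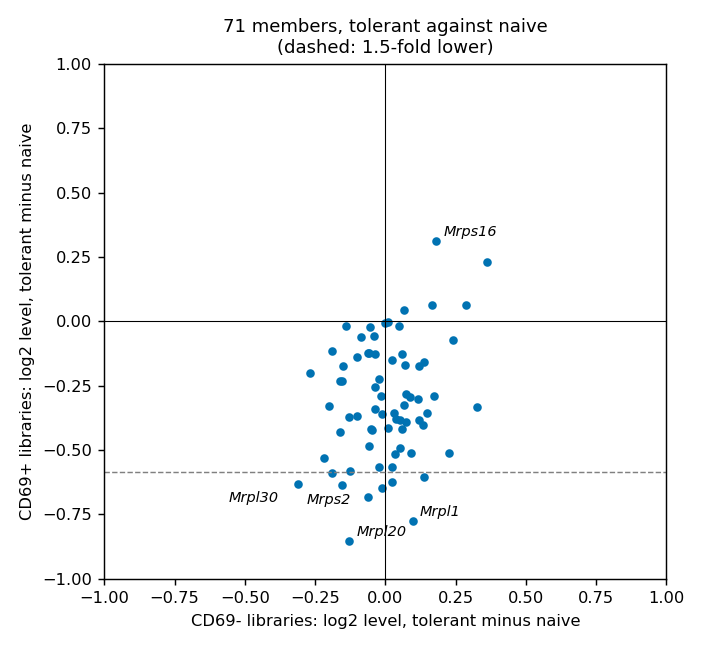
Tolerant minus naive difference in log2 level for the 71 members, in CD69- libraries (x axis) and CD69+ libraries (y axis), 1 point per gene, with a dashed line at 1.5-fold lower. In CD69+ cells 66 points lie below 0 with a median of -0.33, and in CD69- cells 35 lie below 0 with a median of 0.01.

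Rejecting CD69+ cells lay between the other statuses. Against tolerant CD69+ cells, 3 members were 1.5-fold higher (4.23%, against 4.77% of all features), Mrpl1 (1.69-fold), Mrpl20 (1.60-fold) and Mrpl30 (1.52-fold), and none was lower (6.53% of all features). The share of higher members was near that of all features. Against naive CD69+ cells no member was 1.5-fold higher or lower, against 1.68% and 0.375% of all features. The members' medians were 0.17 and -0.15 in these comparisons, with 15 and 61 of 71 below 0.

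In CD69- cells no member was 1.5-fold apart between any statuses. The shares of all features were 0.684% higher and 1.55% lower for tolerant against naive, 1.22% and 0.712% for rejecting against naive, and 2.71% and 2.26% for rejecting against tolerant. The members' medians were 0.01, -0.04 and -0.01, with 35, 49 and 41 of 71 below 0, against 45.7%, 53.1% and 55.1% of all features.

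The series' own design defines candidate tolerance genes as those at least 1.5-fold higher in tolerant CD69+ cells than in both naive CD69+ and tolerant CD69- cells, with a signal of 500 or more, and candidate rejection genes likewise for rejecting CD69+ cells against tolerant CD69+ and rejecting CD69- cells. No member met the tolerance criteria, which 1.90% of all features met. Mrpl20 and Mrpl1 met the rejection criteria (2.82% of members), which 2.69% of all features met, so the share of members was near that of all features.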

How the data were processed

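T cells of 3 kinds of mice, each sorted into a CD69+ and a CD69- fraction, were measured on 6 single-colour Illumina MouseWG-6 arrays, 1 per combination, with 0.55 µg of input RNA, per the labels' protocols. Per the file headers, the deposited raw table gives for 45281 probes an intensity and a detection p-value on each array. Values are linear, with no background subtraction or scaling between arrays. The authors' detection p-values rest on 936 negative controls, as their steps show. GenomeStudio 2009.2 was used, per the submitters' processing notes. The authors' deposited value table holds intensity values with a median of 168.3 in every column and a rank correlation of 1 with the array's own raw column. They are linear with no log and no centring, and how they were made is not given in the sources used here. Slide and hybridization date are likewise not given, so no batch could be tested.

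Log2 levels were computed from the deposited intensities with limma 3.58.1 in R 4.3.3, by normexp (background mean and SD estimated through the detection p-values), an offset of 16 and quantile normalization. Of the probes 34885 had 1 gene symbol in the platform annotation, 18 had several and 10378 were unlisted. A gene was represented by its probe with the highest mean intensity, and a probe without a single symbol stood alone. Features detected at p under 0.01 on at least 1 array were kept, 8339 named and 2340 unnamed. Fits used lmFit and eBayes with status and fraction as terms and 2 residual degrees of freedom, 2-sided tests and Benjamini-Hochberg adjustment over all features. The fractions are paired within a status by the design. A p-value here rests on the spread of a difference over statuses or over fractions, which may be technical. The eBayes step draws each gene's spread toward a value estimated over all features, so an SE is not the gene's own spread alone. Single libraries were compared without a test, at 1.5-fold with an intensity of at least 500 in the brighter library. Where a gene was not detected in one fraction, its fold is a bound, set by the higher of its own level and the dimmest detected probe. Summed marker levels are linear values after normalization.

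The members and gene lists were chosen with earlier results of these data known. Named members are the 10 with the largest difference in each direction among those called, the 5 nearest to 0, the 3 at each end of each status contrast, the 3 furthest apart in each single-library comparison, and Mrpl12, Mrps12, Mrps5, Mrps27, Mrpl45 and Mrpl58 for their known roles. Other lists name the 3 largest differences called in each direction and all nuclear regulators. Further members named by their values (Mrpl9, Mrpl15, Mrpl44, Mrpl47, Mrpl50) and the cytosolic ribosomal protein genes were chosen after these were seen. The promoters shown were picked by level and by motif. Alternatives were the value table, which proved identical in its results to no background correction, median centring, an offset of 50, 2 other detection filters, the second probe, another variance model, no block, each pair left out, a 2-fold minimum and no signal minimum. The scripts were tested on simulated data.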

Additional observations from a re-analysis of the deposited data

Results flagged for a closer look

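A few members moved in opposite directions in different groups, by at least 0.1 on the log2 scale each way. These are single pairs of libraries, and the differences between groups were not tested. Mrpl49 was higher in CD69+ than in CD69- cells of naive mice by 0.18 and differed by -0.12 in tolerant mice. At its dimmer probes the tolerant CD69+ levels were 8.65, 8.26 and 7.77, above the CD69- levels of 7.96, 7.11 and 7.37. The opposite direction of Mrpl49 was thus seen at the probe used only. For tolerant against naive cells, Mrpl51 showed -0.51 in CD69+ and 0.23 in CD69- cells, Mrps15 showed -0.60 and 0.14, and Mrps25 showed -0.33 and 0.33. Other Mrps25 probes had CD69- levels of 7.27 and 6.43 in tolerant and 7.31 and 6.45 in naive cells. The higher tolerant level of Mrps25 in CD69- cells was thus seen at the probe used only. For rejecting against tolerant cells, Mrpl51 showed 0.57 in CD69+ and -0.45 in CD69- cells, Mrps2 showed 0.55 and -0.29, Mrpl55 showed 0.41 and -0.25, and Mrps5 showed 0.14 and -0.45. Mrpl51 and Mrps15 were not detected in any CD69- library, so their CD69- differences are between values not above background and their opposite directions are not established.

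Probes not used above gave a call for some members whose own probe did not pass. With every probe fitted on its own, CD69+ cells differed by 0.39 at a second probe of Mrpl43, by 0.40 at Mrps26, by 0.44 at Mrps33 and by -0.36 at Mrpl9. At Mrpl49 all 3 dimmer probes passed, with 0.87, 1.01 and 0.65, against 0.05 at the probe used.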

How the results depend on the processing

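The number of members higher in CD69+ cells was 50 in the analysis above, 16 of 22 when the second probe of each gene was used, and 26 with a 2-fold minimum, and it was 38 to 55 when a pair of libraries was left out. The number lower was 1, and 0 under median centring, 0 with a 2-fold minimum and 0 to 1 with a pair left out, where it was lost without the naive and without the rejecting pair. The members' median difference was 0.74, 0.68 to 0.87 with a pair left out and 0.95 under median centring, which raised the median of all features from -0.05 to 0.09. Under that centring 58.1% of all calls were higher in CD69+ cells, against 47.2%, and 57 members were higher. Centring also gave a members' median of -0.20 for rejecting against naive cells over both fractions (-0.10 otherwise) and of -0.24 in CD69- cells (-0.04 otherwise), with all features shifted by -0.20 in the latter. For tolerant against naive CD69- cells centring gave -0.12 with 60 members below 0 (0.01 and 35 otherwise), and -0.07 over all features. For rejecting against tolerant CD69- cells it gave -0.10 with 54 below 0 (-0.01 and 41 otherwise), and -0.12 over all features. For tolerant against naive CD69+ cells, centring moved the all-feature split at 1.5-fold from 953 higher and 672 lower to 1234 and 477. At a 2-fold minimum 0 members were apart between tolerant and naive CD69+ cells (8 at 1.5-fold) and 0 between rejecting and tolerant CD69+ cells (3 at 1.5-fold). Over the second probes of 22 genes the counts were 2 (Mrpl3 and Mrpl38) and 1 (Mrpl3). Of the 8 members Mrps10 alone has other detected probes, and the 3 have none. The second probe of Mrps10, at 10.98 in naive and 10.52 in tolerant CD69+ cells, was under 1.5-fold. A further Mrps10 probe, at 10.77 and 10.16, was past 1.5-fold in the same direction as the probe used. The value table, which gave the same values as no background correction, an offset of 50, the detection filters, the other variance model, no block and no signal minimum moved none of these counts by over 1.5 times. Of the members, 38 were called higher and 62 were above 0 in all 11 settings that give such a value. Among single named members, Mrpl30 (0.41 under median centring), Mrpl57 (0.30 with detection on all 6 arrays, 0.35 without the tolerant pair) and Mrpl49 (0.87, second probe) gained a call, and Mrpl33 lost it without the rejecting pair (adjusted p = 0.0699, limma). The causes of these changes were not tested. With 1 library per combination and 2 residual degrees of freedom, no difference between statuses within a fraction could be tested. Members that passed the detection threshold on no array have no value.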
